A study of Mus musculus with 7 samples.

Results

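The genes of the circadian negative feedback loop and the PAR bZIP output factors it drives were examined in mouse hematopoietic stem cells (HSCs) with and without the aryl hydrocarbon receptor gene, Ahr. The set was the period genes Per1 and Per2, the cryptochromes Cry1 and Cry2, the REV-ERB nuclear receptors Nr1d1 and Nr1d2, the PAR bZIP factors Dbp and Tef, their antagonist Nfil3, and the repressor Bhlhe40. Members were the probe sets (groups of array probes summarised to 1 value) whose platform annotation names one of these genes and no other. That rule found 10 probe sets for 9 of the 10 genes, among 23521 probe sets with 1 gene name for 22180 genes in all. Tef had 2 probe sets and the other genes 1 each. Per2 had no probe set annotated to it alone, so no value is given for it.

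Transcripts were profiled on 7 Affymetrix arrays, 3 from Ahr knockout mice (Ahr-KO) and 4 from mice with wild-type Ahr (WT), all on a C57BL/6J background and 8 weeks old. Marrow was depleted of lineage-positive cells, HSCs were sorted by SLAM-family surface markers, and biotinylated cDNA was made from their total RNA with an amplification kit for very small samples. The study asked how loss of Ahr affects the expression profile of these cells. The labels do not give the Ahr allele, the number of mice behind each array, or the hour at which mice were killed. Nothing in them says that arrays of a group came from separate mice, so the tests speak of the spread among arrays, and that spread may be technical.

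The circadian clock is a transcriptional feedback loop. CLOCK and BMAL1 (encoded by Arntl) bind E-boxes and drive the Per, Cry, Nr1d, Dbp, Tef and Bhlhe40 genes. PER and CRY proteins return to the nucleus to inhibit CLOCK and BMAL1, and the REV-ERBs repress Arntl and Nfil3 through elements they share with the ROR activators. DBP and TEF activate, and NFIL3 represses, genes with D-boxes. Transcripts of this loop rise and fall over the day in most tissues, each with its own phase, so a single sampling catches each gene at one point of its cycle. CLOCK and BMAL1 belong to the same bHLH-PAS family as the AhR protein, which binds a short core sequence of its own.

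The stretches upstream of the start sites show which of these elements lie close to the members. The RefSeq promoter table (GRCm38.p6) held 10 start sites for 8 of the genes, and the 250 bases before each start were searched on both strands. Per2 and Bhlhe40 had no window to search. The E-box CACGTG was present in 4 of these windows, from 3 genes (Per1, Cry1 and both starts of Tef), and in 6.02% of all 32851 windows. The ROR element TAGGTCA was present upstream of Nfil3 alone among the 8 genes searched, and in 2.23% of all windows. Neither D-box form searched, TTATGTAA or TTACGTAA, was present in a member window, and 0.819% and 0.113% of all windows held them. The AhR core GCGTG was present in 7 of the 10 member windows, from 7 genes, and in 28.2% of all windows. Its longer form TNGCGTG, which contains that core, was present in 3 member windows (Cry1, Nr1d1 and 1 start of Tef) and in 4.1% of all. Such matches describe letters only. The member windows were 54.8% to 81.6% G or C, and the shares over all windows were not matched for this content. The 4 windows printed here carry an E-box or a ROR element, written in capitals. The E-box reads the same on both strands, and in the Nfil3 window the ROR element lies on the strand opposite to the one printed, so its reverse complement is capitalised. The windows are Per1 at chr11:69098699-69098948 on the plus strand, Cry1 at chr10:85185055-85185304 on the minus strand, the first start of Tef at chr15:81802423-81802672 on the plus strand and Nfil3 at chr13:52981040-52981289 on the minus strand.
Per1: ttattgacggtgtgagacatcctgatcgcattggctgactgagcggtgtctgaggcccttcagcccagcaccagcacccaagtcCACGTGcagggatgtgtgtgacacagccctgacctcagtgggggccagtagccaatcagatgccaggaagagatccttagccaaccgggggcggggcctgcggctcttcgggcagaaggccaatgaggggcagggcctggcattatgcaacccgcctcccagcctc
Cry1: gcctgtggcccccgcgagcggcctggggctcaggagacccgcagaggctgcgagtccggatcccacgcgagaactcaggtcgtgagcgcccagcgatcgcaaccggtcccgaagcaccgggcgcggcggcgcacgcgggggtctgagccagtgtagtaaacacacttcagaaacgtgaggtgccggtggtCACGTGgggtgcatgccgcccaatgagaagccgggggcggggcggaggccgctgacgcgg
Tef: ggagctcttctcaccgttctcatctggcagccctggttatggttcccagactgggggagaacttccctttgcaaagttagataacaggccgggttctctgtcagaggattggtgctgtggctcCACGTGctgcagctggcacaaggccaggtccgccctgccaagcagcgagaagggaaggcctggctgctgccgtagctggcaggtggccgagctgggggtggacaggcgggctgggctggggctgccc
Nfil3: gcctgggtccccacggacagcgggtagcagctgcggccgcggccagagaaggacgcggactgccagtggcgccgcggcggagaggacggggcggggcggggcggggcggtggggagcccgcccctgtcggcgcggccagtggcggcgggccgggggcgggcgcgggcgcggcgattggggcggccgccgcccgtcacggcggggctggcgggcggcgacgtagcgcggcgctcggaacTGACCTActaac
The E-box began at position -166 from the start in Per1, -60 in Cry1 and -127 in Tef, and the ROR element at position -12 in Nfil3.

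The arrays set the limits for such dim genes. In the absence of detection calls, each array's background mark was set at the 95th percentile of its 1108 probe sets for olfactory receptors, genes not expected in blood cells (33.8 to 42.8 intensity units). Between 30.7% (WT replicate 2) and 44.9% (WT replicate 4) of the 25335 tested probe sets lay above it. Ahr itself (probe set 17280729) stood at 34.1, 137 and 26.4 on knockout arrays and at 31.3, 57.9, 14.9 and 20.5 on wild-type arrays. Knockout arrays thus did not stand below wild-type ones, and since the region covered by the probe set is unknown here, Ahr does not check the labels. Among markers of the sorted cells, Kit, Gata2, Hlf and Meis1 were above background on all 7 arrays. Slamf1, the CD150 gene of the sort, was above background on only 4, 3 Ahr-KO and 1 WT. Its intensity was 57.4, 78.0 and 236 on knockout arrays and 4.56, 23.3, 7.81 and 73.3 on wild-type arrays. The groups overlapped, and the log2 difference, Ahr-KO minus WT, was 2.58 ± 0.97 (standard error). Cd48, whose protein the SLAM sort selects against, was above background on 5 arrays, 3 Ahr-KO and 2 WT. Of the genes listed with Cd48 as low in such HSCs, Cd34 was above background on all 7 arrays. Flt3 was above it on 2, 1 of each genotype. Granulocyte and monocyte markers were present and uneven: 6 of 12 lay above background on every array, 11 of the 12 were higher in Ahr-KO, and their summed intensity ran from 6904 to 18026 in Ahr-KO and from 1213 to 19106 in WT. Of 9 HSC markers 2 were higher in Ahr-KO, with sums of 1923 to 2850 there and 2700 to 7680 in WT. T and NK markers were higher in Ahr-KO for 5 of 6 (sums of 398 to 1085 and 212 to 605). Cd3e and Nkg7 were above background on every array, Cd3g and Cd2 on none. Mast cell and basophil markers were higher for 4 of 5 (599 to 2592 and 99.6 to 2911). The count was 0 of 5 for B lymphoid, 2 of 6 for macrophage and dendritic, and 2 of 4 for both erythroid and megakaryocyte markers. Over all 22180 genes, 48.4% were higher in Ahr-KO and 3039 were above background on every array. In each list the summed intensities of the genotypes overlapped. An unadjusted limma p under 0.05 was reached by 1 HSC, 1 erythroid and 1 macrophage and dendritic marker, and by 0 in the other lists. Over all 22180 genes 4.02% lay under that threshold. The HSC marker was Slamf1, with a limma p of 0.0288 unadjusted and 0.963 adjusted. The part of these markers in the results on the clock genes was not tested. In bulk RNA, fewer cells that express a gene and less of its RNA per cell cannot be told apart.

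None of the 10 member probe sets differed between the genotypes at a limma adjusted p under 0.05, as was true of 0% of the 25335 probe sets tested. Adjusted p-values of the members ran from 0.963 to 1.0. At an unadjusted limma p under 0.05 there was 1 member, Nfil3, lower in Ahr-KO, where 4.21% of all tested probe sets lay under that threshold and 2.22% lay under it with lower values. The 3 Ahr-KO and 4 WT values overlapped for all 10 member probe sets, where 5.74% of all probe sets had groups without overlap. Differences were above 0 for 5 members and below 0 for 5 (above 0 for 48.3% of all probe sets), with a median of 0.15 on the log2 scale against -0.03 for all probe sets. Neither was stable: 3 members were above 0 without Ahr-KO replicate 2 (median -0.36) or WT replicate 2 (median -0.43), 7 without WT replicate 1 (median 0.37), and 6 without WT replicate 4 (median 0.64). With 16 added to each intensity in place of 1, the median was -0.10. Values here are log2(intensity + 1), and differences are Ahr-KO minus WT with a moderated standard error (SE). The size of a difference between dim values depends on the number added. With 16 in place of 1 it was -1.16 rather than -2.72 for Nfil3, 0.37 rather than 0.89 for Nr1d2 and -0.63 rather than -0.01 for Per1. Because different probes respond differently, levels are compared only within a probe set.

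**Figure D1:**
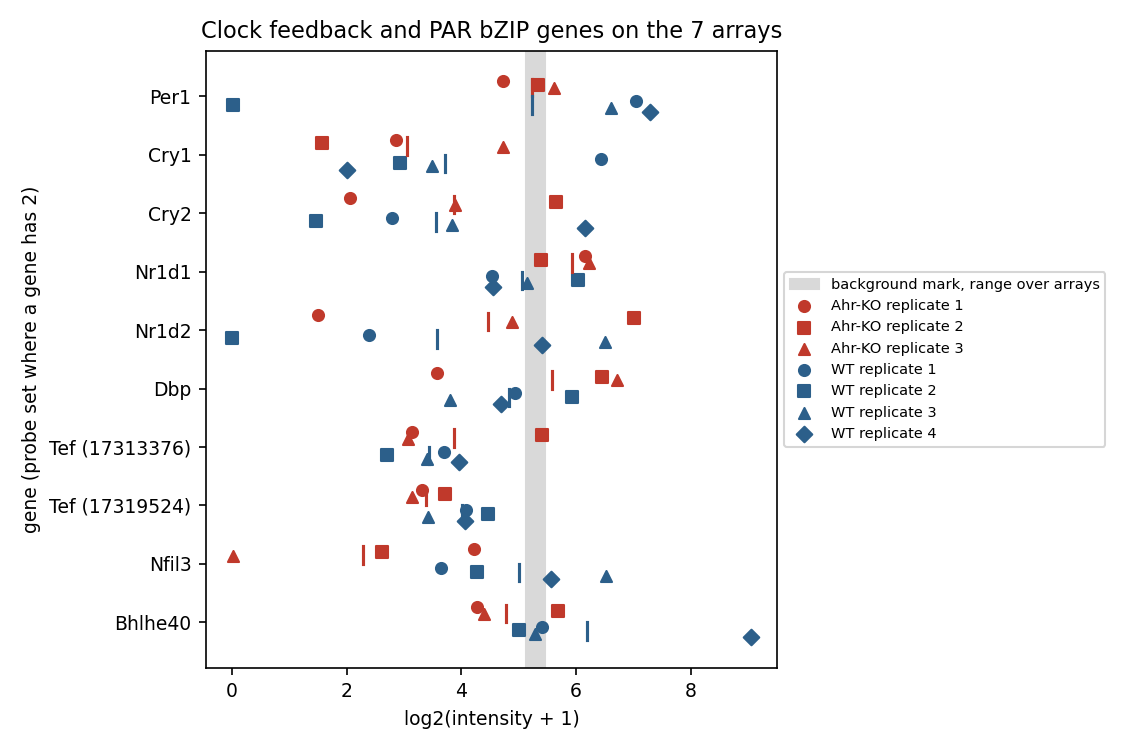
Level of each member probe set on the 7 arrays, as log2(intensity + 1) on the x axis, with genes on the y axis; red symbols are Ahr-KO, blue symbols WT, vertical ticks the group means, and the grey band the range of the background mark. The 2 genotypes overlap in every line, Per1 and Nr1d2 have 1 WT array near 0, and Bhlhe40 has 1 WT array at 528 intensity units.

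Per1, an inhibitory arm of the loop, was above background on 5 of the 7 arrays. Its intensity was 25.6, 39.5 and 47.95 on knockout arrays and 131, 0.01, 96.5 and 156 on wild-type arrays (probe set 17251527). The 3 WT arrays other than replicate 2 were higher than every Ahr-KO array, and WT replicate 2 was the lowest of all. The log2 mean was 5.23 ± 0.45 (SD, n = 3) for knockout and 5.24 ± 3.49 (SD, n = 4) for wild-type arrays, a difference of -0.01 ± 1.70 (SE; limma adjusted p = 1.0). That value was the balance of a single array against the other 3: without WT replicate 2 the difference was -1.75, without WT replicate 4 it was 0.67, and after quantile normalization it was 0.016. WT replicate 2 was also the array with the smallest share of probe sets above background.

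The cryptochromes, the other inhibitory arm, gave little signal. Cry1 stood at 6.23, 1.96 and 25.6 on knockout arrays and at 85.1, 6.64, 10.2 and 3.03 on wild-type arrays, above background on WT replicate 1 alone (probe set 17243644). The resulting log2 difference was -0.66 ± 1.16 (SE, limma adjusted p = 0.97), and it was 0.24 when WT replicate 1 was left out and 0.08 without Ahr-KO replicate 2. Cry2 stood at 3.18, 49.2 and 13.9 on knockout arrays and at 5.93, 1.75, 13.2 and 70.4 on wild-type arrays, above background on 1 array of each genotype (probe set 17388389). Its difference on the log2 scale was 0.31 ± 1.23 (SE; limma adjusted p = 0.988), and it was -0.58 without Ahr-KO replicate 2 and -0.39 without WT replicate 2. For both cryptochromes the direction was therefore set by single arrays. The Cry2 gene overlaps the long non-coding RNA gene D930015M05Rik in RefSeq, and which of the 2 genes the probes read was not checked.

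Of the REV-ERBs, which repress Arntl, Nr1d1 was the member above background on every Ahr-KO array. Among the 4 WT arrays it was above background on replicate 2 alone, so its other WT values cannot be told from background. Its intensity was 70.5, 41.0 and 74.0 on knockout arrays and 22.1, 64.3, 34.4 and 22.5 on wild-type arrays (probe set 17268884). WT replicate 2, at 64.3, was above 1 of the 3 Ahr-KO arrays, and the other WT arrays were below them all. The log2 mean was 5.93 ± 0.46 (SD, n = 3) against 5.06 ± 0.70 (SD, n = 4), a difference of 0.86 ± 0.54 (SE, 95% interval -0.39 to 2.12) with a limma adjusted p of 0.963. Leaving out any single array kept it between 0.69 and 1.18. The gene overlaps the thyroid hormone receptor gene Thra in RefSeq, and the sources used here do not say which strand the probes read. Nr1d2 stood at 1.84, 128 and 28.5 on knockout arrays and at 4.22, 0, 90.1 and 41.4 on wild-type arrays (probe set 17303625). It was listed at 0 on WT replicate 2 and was above background on 3 arrays spread over both genotypes. Its log2 difference of 0.89 ± 1.80 (SE; limma adjusted p = 0.974) had the widest error among the members, and it was -0.38 without Ahr-KO replicate 2 and -0.30 without WT replicate 2. With 1 added to each intensity, the REV-ERB paralogs thus had nearly equal estimated differences with very unequal precision. With 16 added the difference was 0.63 for Nr1d1 and 0.37 for Nr1d2.

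Dbp, a D-box activator and among the most strongly cycling clock outputs known, was uneven within both genotypes. Its intensity was 10.9, 86.4 and 104 on knockout arrays and 29.65, 60.2, 13.0 and 24.7 on wild-type arrays (probe set 17477979). Ahr-KO replicates 2 and 3 were higher than every WT array, while Ahr-KO replicate 1 was the lowest of all 7. The log2 mean was 5.58 ± 1.75 (SD, n = 3) against 4.84 ± 0.88 (SD, n = 4), a difference of 0.74 ± 0.88 (SE; limma adjusted p = 0.964). It was 1.75 without Ahr-KO replicate 1 and 0.17 without Ahr-KO replicate 3. Dbp overlaps the sphingosine kinase gene Sphk2 in RefSeq.

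Tef, the other PAR bZIP member, had 2 probe sets that disagreed in sign. On probe set 17313376 it stood at 7.77, 41.6 and 7.42 on knockout arrays and at 12.1, 5.52, 9.62 and 14.5 on wild-type arrays, above background on Ahr-KO replicate 2 alone. On the log2 scale the difference was 0.43 ± 0.69 (SE; limma adjusted p = 0.968), and -0.34 without that array. On probe set 17319524 it stood at 8.91, 12.1 and 7.86 on knockout arrays and at 15.9, 21.0, 9.74 and 15.6 on wild-type arrays, above background on no array. The log2 difference there was -0.62 ± 0.45 (SE; limma adjusted p = 0.963), with 1 WT array inside the Ahr-KO range. A difference in Tef was therefore not detectable at the signal these probe sets gave.

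Nfil3, the repressor that competes with DBP and TEF for D-boxes, had the largest estimated difference of the members. Its intensity was 17.6, 5.10 and 0.01 on knockout arrays and 11.5, 18.3, 91.2 and 46.2 on wild-type arrays (probe set 17292634). It was above background on WT replicates 3 and 4 and on no Ahr-KO array, and WT replicate 1 lay below Ahr-KO replicate 1. The log2 mean was 2.28 ± 2.12 (SD, n = 3) for knockout and 5.0 ± 1.29 (SD, n = 4) for wild-type arrays, a difference of -2.72 ± 1.09 (SE, 95% interval -5.24 to -0.20). The limma p was 0.0377 unadjusted and 0.963 adjusted, so the difference did not pass the threshold. Its size depended on values below background: it was -1.59 without Ahr-KO replicate 3, where the gene was listed at 0.01, and -1.16 with 16 in place of 1 added to each intensity.

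Bhlhe40 (also known as Dec1), which represses through E-boxes and is induced by many stimuli besides the clock, rested on 1 array. Its intensity was 18.3, 50.6 and 19.9 on knockout arrays and 41.65, 31.1, 38.0 and 528 on wild-type arrays (probe set 17461414). WT replicate 4 was the highest, and the other 3 WT arrays lay between the lowest and the highest Ahr-KO values. On the log2 scale the difference was -1.41 ± 1.03 (SE; limma adjusted p = 0.963), and -0.45 without WT replicate 4. WT replicate 4 had the largest share of probe sets above background as well. The gene overlaps the long non-coding RNA gene 0610040F04Rik in RefSeq.

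**Figure D2:**
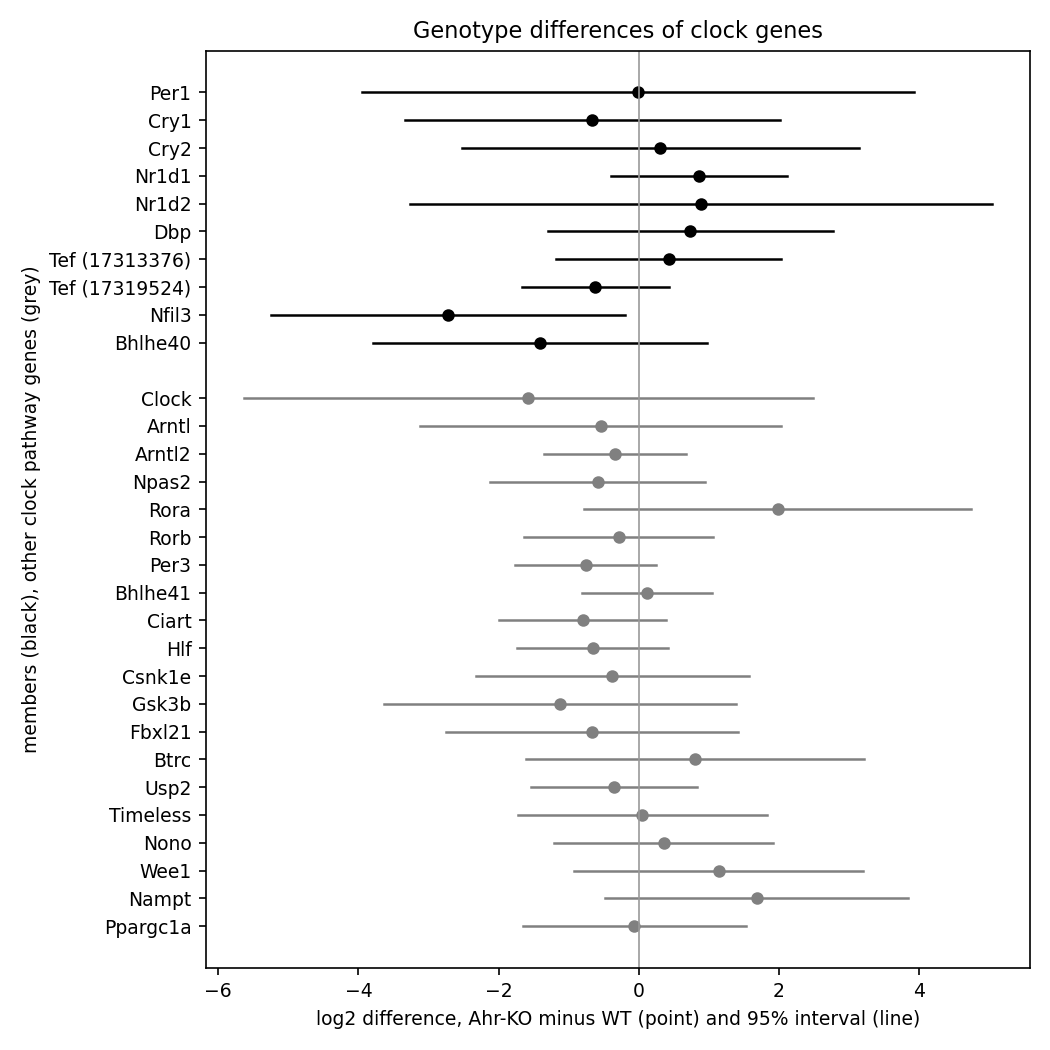
Log2 difference, Ahr-KO minus WT (points), with the 95% interval from limma's moderated error (lines), for the 10 member probe sets (black) and 20 other clock pathway genes (grey). Every interval includes 0 except that of Nfil3, -5.24 to -0.20, before adjustment for the number of probe sets tested.

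By array, the signal of the members differed widely within each genotype. Of the 70 member values, 24 were above background, or 34.3%, close to the 37.0% of all tested values. Ahr-KO replicate 2 had 7 of the 10 member probe sets above background, and Ahr-KO replicate 1 had 1. Among WT arrays the number was 5 on replicate 4, 3 on replicates 1 and 3, and 2 on replicate 2. The arrays with the most members above background, Ahr-KO replicate 2 and WT replicate 4, also had the largest shares of all probe sets above it, 41.9% and 44.9%. The part of this difference between arrays in the members' values was not tested. WT replicate 2 held the lowest value of 4 members (Per1, Cry2, Nr1d2 and Tef on probe set 17313376), and WT replicate 4 held the highest value of 3 (Per1, Cry2 and Bhlhe40). Members did not share 1 array of highest signal: their maxima were spread over 6 of the 7 arrays.

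**Figure D3:**
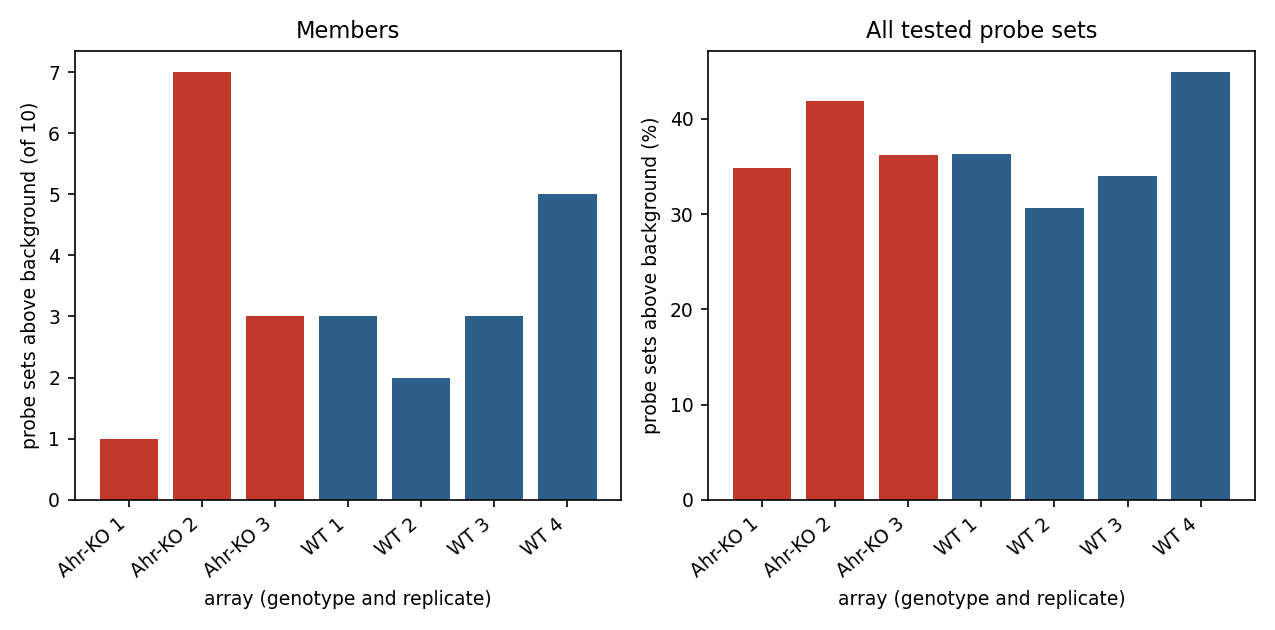
Number of the 10 member probe sets above background (left) and percentage of the 25335 tested probe sets above background (right) on each array; bars are single arrays, red for Ahr-KO and blue for WT. Members above background run from 1 on Ahr-KO replicate 1 to 7 on Ahr-KO replicate 2, and the right panel runs from 30.7% to 44.9%.

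The spread behind these values was wide but not the same for each gene. The residual SD within genotype was above the median of all tested probe sets (0.93 log2 units) for 8 of the 10 member probe sets, and the median over the members was 1.62. It was largest for Nr1d2 (2.88) and Per1 (2.72), which each had an array at or near 0, and smallest for Tef on probe set 17319524 (0.38) and for Nr1d1 (0.62). From the lowest to the highest array, Per1 spanned 7.28 and Nr1d2 7.01 log2 units, whereas Nr1d1 spanned 1.70. The SE of the difference exceeded 1 log2 unit for 6 of the 10, against 5798 of the 25335 tested probe sets. For Per1, Cry1, Cry2, Nr1d2, Dbp and Tef on probe set 17313376 the difference was smaller than its SE.

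The rest of the clock pathway was described by a list of 23 genes chosen by role, of which 20 had a probe set of their own. None of the 20 passed at a limma adjusted p under 0.05, the count over all 22180 genes also being 0%, and none had an unadjusted limma p under 0.05, where 4.02% of 22180 genes did. That count was 2 without Ahr-KO replicate 1 (Btrc and Nampt), 1 without Ahr-KO replicate 2 (Rora) and 1 with 16 added to each intensity (Per3). The difference was above 0 for 7 and below 0 for 13 (above 0 for 48.4% of all genes), with a median log2 difference of -0.34 against -0.03 over all genes. The activators that drive the members were lower in all 4 cases, each within its error. Clock stood at 6.31, 191 and 0.81 on knockout arrays and at 45.0, 3.18, 105 and 135 on wild-type arrays, a log2 difference of -1.58 ± 1.76 (SE; limma adjusted p = 0.963). It ranged from -0.12 without Ahr-KO replicate 3 to -3.49 without Ahr-KO replicate 2, and was -2.67 without WT replicate 2 and -1.0 without WT replicate 4. Arntl, the gene of BMAL1, stood at 18.2, 3.97 and 11.3 on knockout arrays and at 5.92, 5.51, 8.68 and 127 on wild-type arrays, above background on WT replicate 4 alone. Its difference on the log2 scale was -0.54 ± 1.11 (SE; limma adjusted p = 0.975), and 0.48 without WT replicate 4. Npas2, a CLOCK paralog, differed by -0.59 ± 0.66 (SE; limma adjusted p = 0.964), and by between -0.22 (without WT replicate 1) and -1.03 (without WT replicate 2) when single arrays were left out.

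Per3, the third period gene, was the clock pathway gene whose groups did not overlap, where 5.78% of genes had groups without overlap and 3.15% had them with Ahr-KO lower. It stood at 36.7, 36.8 and 40.3 on knockout arrays and at 68.7, 75.1, 80.1 and 42.6 on wild-type arrays. All 4 WT values and 2 of the 3 Ahr-KO values were above background. On the log2 scale the difference was -0.76 ± 0.44 (SE, 95% interval -1.77 to 0.25; limma adjusted p = 0.963), and leaving out any single array kept it between -0.96 and -0.66. Ciart, a repressor of CLOCK and BMAL1, stood at 10.9, 23.5 and 28.96 on knockout arrays and at 39.4, 42.9, 39.6 and 21.9 on wild-type arrays, a log2 difference of -0.80 ± 0.52 (SE; limma adjusted p = 0.963). It was above background on 2 WT arrays and no Ahr-KO array, and differed by -0.40 without Ahr-KO replicate 1. WT replicate 4 was the lowest WT array for both Per3 and Ciart, although it was the highest for Per1.

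Hlf, the third PAR bZIP factor and a known HSC regulator, was well above background on every array, unlike Dbp and Tef. It stood at 310, 370.5 and 633 on knockout arrays and at 560.4, 565, 662 and 900 on wild-type arrays. The log2 mean was 8.71 ± 0.53 (SD, n = 3) against 9.37 ± 0.32 (SD, n = 4), a difference of -0.66 ± 0.47 (SE; limma adjusted p = 0.963), with Ahr-KO replicate 3 inside the WT range. Bhlhe41, the paralog of Bhlhe40, was above background on all 7 arrays and steady, between 80.8 and 112 in Ahr-KO and between 85.3 and 91.95 in WT, a difference of 0.13 ± 0.40 (SE; limma adjusted p = 0.985). Its residual SD was 0.15 log2 units, lower than in all but 0.426% of tested probe sets. Rora, which activates through the element that the REV-ERBs repress, had 1 array far from the rest: 489 on Ahr-KO replicate 3, against 8.12 to 22.3 on the other 6. Its log2 difference of 1.99 ± 1.19 (SE; limma adjusted p = 0.963) was 0.36 without that array. Nampt, a clock-controlled enzyme of NAD synthesis, differed by 1.68 ± 0.93 (SE) and was 270 on Ahr-KO replicate 2. Without that array its difference was 0.71. The cell cycle kinase gene Wee1 differed by 1.14 ± 0.89 (SE) and the kinase gene Gsk3b by -1.13 ± 1.09 (SE), and limma gave both an adjusted p of 0.963. Wee1 differed by 0.68 without WT replicate 1, 0.69 without WT replicate 3 and 0.71 when Ahr-KO replicate 3 was left out. Gsk3b differed by -0.19 without Ahr-KO replicate 3, -0.58 without WT replicate 4, -1.74 without Ahr-KO replicate 2 and -1.88 without WT replicate 3.

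Pairs of genes with a textbook relation were compared across the 7 arrays, 3 pairs in all. Nr1d1 and Dbp, both driven through E-boxes, gave a Pearson r of 0.28 (exact permutation p = 0.525, two-sided, 0.581 adjusted over the 3 pairs) and a Spearman rho of 0.29 (exact permutation p = 0.556, 0.834 adjusted). Nr1d1 and its target Arntl gave an r of -0.31 (exact permutation p = 0.581, also after adjustment) and a rho of 0.07 (exact permutation p = 0.906, also after adjustment). That r was 0.51 without WT replicates 1 and 4, the 2 arrays farthest from the median of Nr1d1. Dbp and its antagonist Nfil3 gave the strongest relation, an r of -0.78 (exact permutation p = 0.0304, 0.0911 adjusted) and a rho of -0.71 (exact permutation p = 0.0881, 0.264 adjusted). It did not pass after adjustment. As deviations from the genotype means the r of Dbp and Nfil3 was -0.81, and without Ahr-KO replicates 2 and 3, the 2 arrays farthest from the median of Dbp, it was -0.41. Without either of those 2 arrays alone, the r of Dbp and Nfil3 was -0.77 and -0.67. Dropping both narrows the range of Dbp, and most Nfil3 values behind the relation lay below background. The arrays also share differences in overall signal, and the hour of sampling is not in the labels. After quantile normalization or median centring the r of Dbp and Nfil3 was -0.80, and it did not pass after adjustment in either case.

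**Figure D4:**
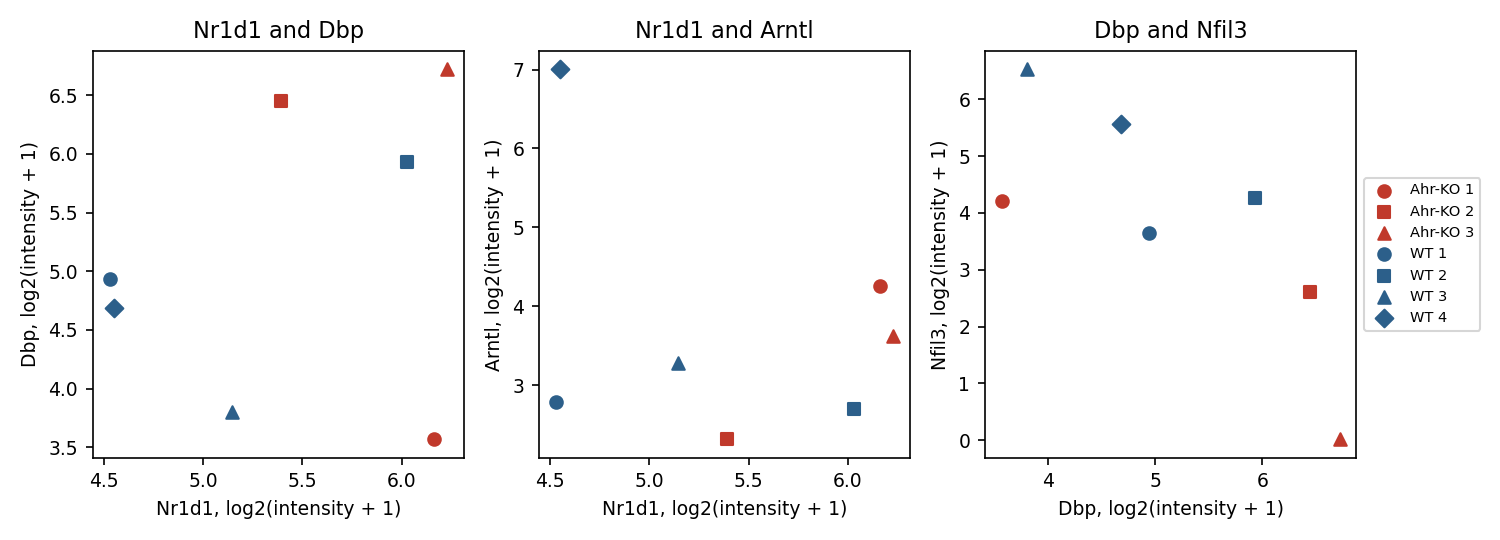
Levels of 3 gene pairs on the 7 arrays, as log2(intensity + 1) on both axes, each symbol 1 array, red for Ahr-KO and blue for WT. Dbp and Nfil3 run in opposite directions (r = -0.78), with Ahr-KO replicate 3 at the lower right, whereas Nr1d1 shows no clear relation to Dbp (r = 0.28) or Arntl (r = -0.31).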

How the data were processed

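The values deposited are linear intensities, 1 for each probe set on each array, with none below 0. The submitters' processing notes name Affymetrix Expression Console; how probes were summarised, background-corrected and normalized, and on which genome build, is not given in the sources. The platform annotation listed 25335 of the 41155 rows, 23521 with 1 gene name and 1814 with several. The other 15820 rows were left out of the test. A fit of log2(intensity + 1) on genotype used limma 3.58.1 (lmFit, eBayes; R 4.3.3) with all 7 arrays. P-values were two-sided and Benjamini-Hochberg adjusted over the 25335 probe sets. Arrays have no read depth, and their number limits the precision. Other clock genes were represented by their probe set of highest mean over all arrays. Every member probe set was named, then Clock, Arntl, Npas2, Per3, Hlf, Rora and the 4 other pathway genes of smallest unadjusted p; Bhlhe41 was named after its values were seen. Members and lists were chosen with earlier results of these data known. Correlations used exact permutation over 5040 orders (scipy 1.17.1). Same-numbered arrays were not paired: their deviations from group means correlated at 0.02, -0.06 and 0.01.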

Additional observations from a re-analysis of the deposited data

Results flagged for a closer look

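In 4 of the 20 WT groups examined (10 member probe sets and 10 other clock genes, 4 log2 values each), 1 array lay far from the other 3, its gap to the nearest, divided by the group's range, exceeding Dixon's 95% critical value. For independent, normally distributed values that threshold flags about 1 group in 20. These groups share the same 4 arrays and include values near 0, so their number of flags cannot be set against that rate. Per1 was 0.01 on WT replicate 2, against 96.5 to 156 on the other WT arrays. Bhlhe40 was 528 on WT replicate 4, against 31.1 to 41.65. Arntl was 127 on WT replicate 4, against 5.51 to 8.68. Ciart was 21.9 on WT replicate 4, against 39.4 to 42.9.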

How the results depend on the processing

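No member or named clock gene passed an adjusted p under 0.05 under any of the 15 alternatives, which left out each array, changed the scaling, pseudocount, dim-signal filter (above background on at least 3 arrays), rows tested, variance prior or array weights, or used the replicate number as a block; the lowest adjusted p was 0.908. Of 291 differences for 20 probe sets under these alternatives, 274 kept their sign. The filter, the rows tested and the variance prior cannot change a difference, only its error and p. Their part of the 274 was therefore fixed in advance. The difference of Per1 turned positive after quantile normalization (0.016), after median centring (0.062) and with the replicate block (0.67). That of Arntl did so with the block (0.48). Only WT has a replicate 4, so the block gave the same differences as leaving out WT replicate 4. For the differences the block is therefore not a separate alternative. Without single arrays, Per1 ran from -1.75 to 0.67, Cry1 from -1.50 to 0.24, Cry2 from -0.58 to 1.21, Nr1d2 from -0.38 to 2.37, Tef on probe set 17313376 from -0.34 to 0.83, and Arntl from -0.97 to 0.48. Member probe sets without overlap numbered 0 to 3 without single arrays: Nr1d1, Bhlhe40 and Tef on probe set 17319524 without Ahr-KO replicate 2, Dbp and Nfil3 without Ahr-KO replicate 1, Per1 and Nr1d1 without WT replicate 2, Nfil3 without WT replicate 1, and Tef on probe set 17319524 without WT replicate 3. Members at unadjusted p under 0.05 numbered 3 without WT replicate 2 (Per1, Nr1d1 and Nfil3), 2 without Ahr-KO replicate 1 (Dbp and Nfil3), and 0 with a pseudocount of 16, with the block, or without Ahr-KO replicate 2 or 3 or WT replicate 3 or 4. Members with higher values in Ahr-KO were 5 of 10, 6 of 10 after quantile normalization or median centring, and 3 to 7 of 10 without single arrays. The filter left 5 member probe sets to test and removed Nfil3. The correlation of Nr1d1 and Arntl ran from -0.55 to 0.51 without single arrays and was 0.51 without the 2 arrays farthest from the median of Nr1d1; that of Nr1d1 and Dbp ran from 0.01 to 0.70 and that of Dbp and Nfil3 from -0.89 to -0.67. With the filter, 495 of 10731 probe sets had an unadjusted p under 0.05, and with all rows 1781 of 41155. Signal limits these results: values under about 34 to 43 units cannot be told from background.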
